A study of Mus musculus with 5 samples.

Results

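The genes described here are 7 genes of cholesterol synthesis and sterol sensing, Hmgcs1, Idi1, Sqle, Lss, Cyp51, Dhcr7 and Insig1, of the 23279 named genes measured in embryonic mouse hearts. They were chosen by name, and each is represented by a single probe set. All 7 passed the filter on dim genes, which left 13967 genes for testing. Hearts came from untreated embryos at E10.5, the stage at which the looped heart tube forms its chambers. There were 3 arrays from embryos with the genotype Control and 2 from embryos with the genotype KO. The targeted gene is Lrrfip2, and the series asks how it bears on the response to low oxygen in the forming heart. The labels do not give the strain, the allele or the genotype of the controls, nor whether hearts were pooled. The p-values therefore measure only the spread between these 5 samples, which may be technical. Levels are given as log2 RMA values, and each difference is the knockout mean minus the control mean on that scale.

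Cells build cholesterol from acetyl-CoA, first through mevalonate to farnesyl pyrophosphate and then through squalene and lanosterol to the finished sterol. Several steps of the second arm use molecular oxygen directly. These are the epoxidation of squalene by Sqle, the removal of a methyl group from lanosterol by Cyp51, the oxidation of further methyl groups by Msmo1 and the desaturation by Sc5d. Most genes of the pathway are driven by SREBP2, a transcription factor held in the endoplasmic reticulum by Scap and the Insig proteins while sterols are plentiful, and Insig1 is itself a target of SREBP2. Embryos need cholesterol for membranes and for the maturation of hedgehog ligands, and the liver is a major producer of it.

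None of the 7 genes passed the test between knockout and control. Their adjusted p-values in limma lay between 0.57 and 0.925, and 0 genes (0%) passed among all 13967. The unadjusted p was under 0.05 for 0 of the 7, against 1227 (8.78%) of all genes tested. The estimates were higher in the knockout for Insig1, Lss, Cyp51, Hmgcs1 and Sqle and lower for Idi1 and Dhcr7. That is 5 of 7 higher and 2 lower, where 44.8% of all genes tested were higher and 55.2% lower, with a median difference of 0.27 against -0.02 over all genes. For 3 genes, Insig1, Lss and Cyp51, both knockout arrays lay above all controls, which was the case for 8.18% of all genes, and for Idi1 both lay below, as for 13.1% of all genes.

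The promoter sequences show an element that the genes share. Of the 7 genes, 6 are in the RefSeq promoter table of GRCm38.p6; Sqle is not. In the 250 bases before the transcription start, all 6 hold the letters CCAAT on one strand or the other (ATTGG when read on the opposite strand), the box bound by NF-Y, a usual partner of SREBP. Of the 32851 promoter windows of that length in the table, 33.8% hold it. That share is per window, and Dhcr7, which has 3 windows, holds the letters in 1 of them. TCACNCCAC, a form of the sterol regulatory element, occurs in Hmgcs1 as TCACCCCAC, 137 to 129 bases before the start, and in 1.05% of all windows. The looser TCANNCCAC, which includes every match of the first, is in 3.52% of windows and finds no further member. Other forms of the sterol regulatory element were not searched. ACGTG is a form of the core of the element bound by the hypoxia-inducible factors. It lies in Insig1 and in 1 of the 3 windows of Dhcr7, and in 16.6% of all windows. Other forms of that core, such as GCGTG, were not searched, so these counts do not cover every core. In Insig1 ACGTG occurs within CACGTG, which reads as the motif on both strands, 101 to 96 bases before the start. It occurs again 21 to 17 bases before the start. The windows of the 5 genes with a single listed start are printed 5′ to 3′ along the gene, with these motifs in capitals. A match describes the letters only and does not show that a factor binds.
Hmgcs1, chr13:119690101-119690350, plus strand: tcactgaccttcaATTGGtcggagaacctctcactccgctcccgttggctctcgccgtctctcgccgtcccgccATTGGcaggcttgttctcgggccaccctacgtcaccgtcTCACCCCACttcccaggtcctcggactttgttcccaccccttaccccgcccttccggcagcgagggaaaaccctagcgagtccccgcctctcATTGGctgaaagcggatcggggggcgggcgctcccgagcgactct
Idi1, chr13:8885356-8885605, plus strand: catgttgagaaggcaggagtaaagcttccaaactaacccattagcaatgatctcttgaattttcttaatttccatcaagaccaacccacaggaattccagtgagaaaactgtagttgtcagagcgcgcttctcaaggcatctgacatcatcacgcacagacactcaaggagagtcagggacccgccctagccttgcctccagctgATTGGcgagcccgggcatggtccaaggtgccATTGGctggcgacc
Lss, chr10:76531355-76531604, plus strand: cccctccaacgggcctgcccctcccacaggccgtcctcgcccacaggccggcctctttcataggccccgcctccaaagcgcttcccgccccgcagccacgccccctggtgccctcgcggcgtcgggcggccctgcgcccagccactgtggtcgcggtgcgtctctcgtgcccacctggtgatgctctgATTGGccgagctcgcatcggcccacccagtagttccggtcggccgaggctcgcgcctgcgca
Cyp51, chr5:4104698-4104947, minus strand: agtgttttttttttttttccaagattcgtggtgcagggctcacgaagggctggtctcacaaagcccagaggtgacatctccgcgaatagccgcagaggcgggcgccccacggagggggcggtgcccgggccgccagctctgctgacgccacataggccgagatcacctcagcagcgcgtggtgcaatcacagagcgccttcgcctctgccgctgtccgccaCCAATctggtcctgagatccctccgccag
Insig1, chr5:28071162-28071411, plus strand: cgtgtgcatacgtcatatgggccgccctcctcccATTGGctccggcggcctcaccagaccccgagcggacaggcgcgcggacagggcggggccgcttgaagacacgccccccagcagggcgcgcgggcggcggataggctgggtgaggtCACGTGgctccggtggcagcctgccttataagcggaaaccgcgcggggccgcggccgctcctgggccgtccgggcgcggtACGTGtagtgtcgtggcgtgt

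**Figure D1:**
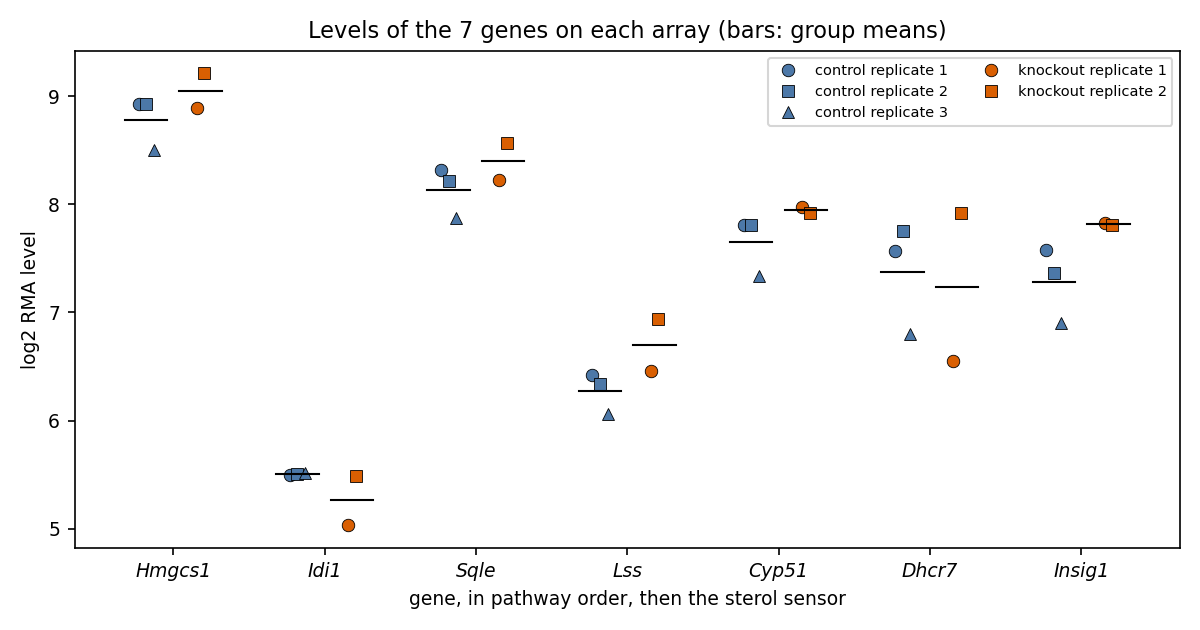
Log2 RMA level (vertical axis) of the 7 genes on each array, with control arrays in blue, knockout arrays in orange, a symbol for each replicate and a bar at the group mean. Control replicate 3 is the lowest control for 6 of the 7 genes, and the knockout arrays lie 1.37 apart for Dhcr7.

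The first arm is represented by Hmgcs1 and Idi1. Hmgcs1, which condenses acetyl-CoA units into hydroxymethylglutaryl-CoA, had levels of 8.93, 8.93 and 8.50 in control replicates 1, 2 and 3 and of 8.89 and 9.21 in knockout replicates 1 and 2. Knockout replicate 2 was the highest array, while knockout replicate 1 lay among the controls. The difference was 0.27 ± 0.19 (SE), with a 95% interval of -0.26 to 0.80, and it was 0.12 without control replicate 3 and 0.11 without knockout replicate 2. Idi1, the isomerase that makes the reactive building block for chain growth, behaved differently. Its controls were nearly equal, at 5.50, 5.51 and 5.52, while the knockout arrays had 5.03 and 5.49. Knockout replicate 1 was thus clearly lower, and knockout replicate 2 lay only just under the lowest control. The difference was -0.25 ± 0.15 (SE; interval -0.66 to 0.17). It rests on knockout replicate 1: without that array it was -0.02, and it reached -0.47 without knockout replicate 2 (adjusted p of 0.0279 in limma). That last fit sets 1 knockout array against 3 controls, assumes that it varies as they do, and called 1011 genes in all.

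Sqle and Cyp51, the members that consume oxygen, both had higher mean levels in the knockout. Sqle, the monooxygenase that makes the epoxide of squalene, had levels of 8.32, 8.22 and 7.87 in control replicates 1 to 3 and of 8.22 and 8.57 in the knockout arrays. The groups overlapped, with knockout replicate 1 among the controls and knockout replicate 2 above them. The difference was 0.26 ± 0.19 (SE; interval -0.26 to 0.78), and it was 0.13 without control replicate 3 and 0.09 without knockout replicate 2. Cyp51, the cytochrome P450 that demethylates lanosterol, was at 7.81, 7.81 and 7.33 in the controls and at 7.98 and 7.92 in the knockout arrays. Here both knockout arrays lay above every control, by a small margin. The difference was 0.30 ± 0.18 (SE; interval -0.20 to 0.79), and 0.14 without control replicate 3.

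The other steps that use oxygen gave similar estimates. Msmo1, the sterol methyl oxidase, was at 8.03, 8.03 and 7.38 in the controls and at 8.10 and 8.35 in the knockout arrays, above every control. Its difference was 0.41 ± 0.26 (SE; interval -0.30 to 1.12), and it was 0.19 without control replicate 3. Sc5d, the desaturase, was at 7.93, 7.92 and 7.36 in the controls and at 7.77 and 8.09 in the knockout arrays, which overlapped the controls. Its difference was 0.19 ± 0.24 (SE; interval -0.46 to 0.84), which came to 0.0039 without control replicate 3 and 0.03 without knockout replicate 2. All 4 oxygen-consuming enzymes thus had higher means in the knockout, where 44.8% of all genes tested did. The median of the 4 was 0.28, and it was 0.13 without control replicate 3 and 0.18 without knockout replicate 2. None passed the test (adjusted p 0.57 to 0.723 in limma), and for each of them control replicate 3 was the lowest control, as for 34.4% of all genes. Each interval includes 0 as well as a change of 0.78 or more.

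Lss and Dhcr7 act between and after these steps without using oxygen. Lss, which folds the epoxide of squalene into lanosterol, had levels of 6.42, 6.34 and 6.06 in the controls and of 6.46 and 6.94 in the knockout arrays. Both knockout arrays lay above the controls, knockout replicate 1 only barely. The difference was 0.43 ± 0.20 (SE; interval -0.12 to 0.98), but 0.18 without knockout replicate 2 and 0.67 without knockout replicate 1. Dhcr7, the reductase that completes cholesterol, was the most variable member. It was at 7.57, 7.75 and 6.80 in the controls and at 6.55 and 7.92 in the knockout arrays, which held both the lowest and the highest value of all 5. Its difference of -0.14 ± 0.54 (SE) had an interval of -1.64 to 1.37, and it turned to 0.55 without knockout replicate 1 and to 0.05 without control replicate 2.

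Insig1, the sterol sensor, had the largest estimate among the 7. Its levels were 7.58, 7.36 and 6.91 in control replicates 1, 2 and 3 and 7.83 and 7.81 in the knockout arrays. The knockout arrays were nearly equal and lay above every control. The difference was 0.54 ± 0.22 (SE; interval -0.08 to 1.15), a 1.45-fold higher level, with an unadjusted p of 0.0725 and an adjusted p of 0.57 in limma. It was 0.35 without control replicate 3, 0.55 without knockout replicate 2 and 0.53 without knockout replicate 1, so it was of like size in each knockout array. Its paralogue Insig2, which shares the role of retaining Scap, was at 5.71, 5.89 and 5.64 in the controls and at 6.20 and 5.89 in the knockout arrays. It differed by 0.30 ± 0.13 (SE; unadjusted p of 0.0873 in limma), with knockout replicate 2 level with control replicate 2.

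**Figure D2:**
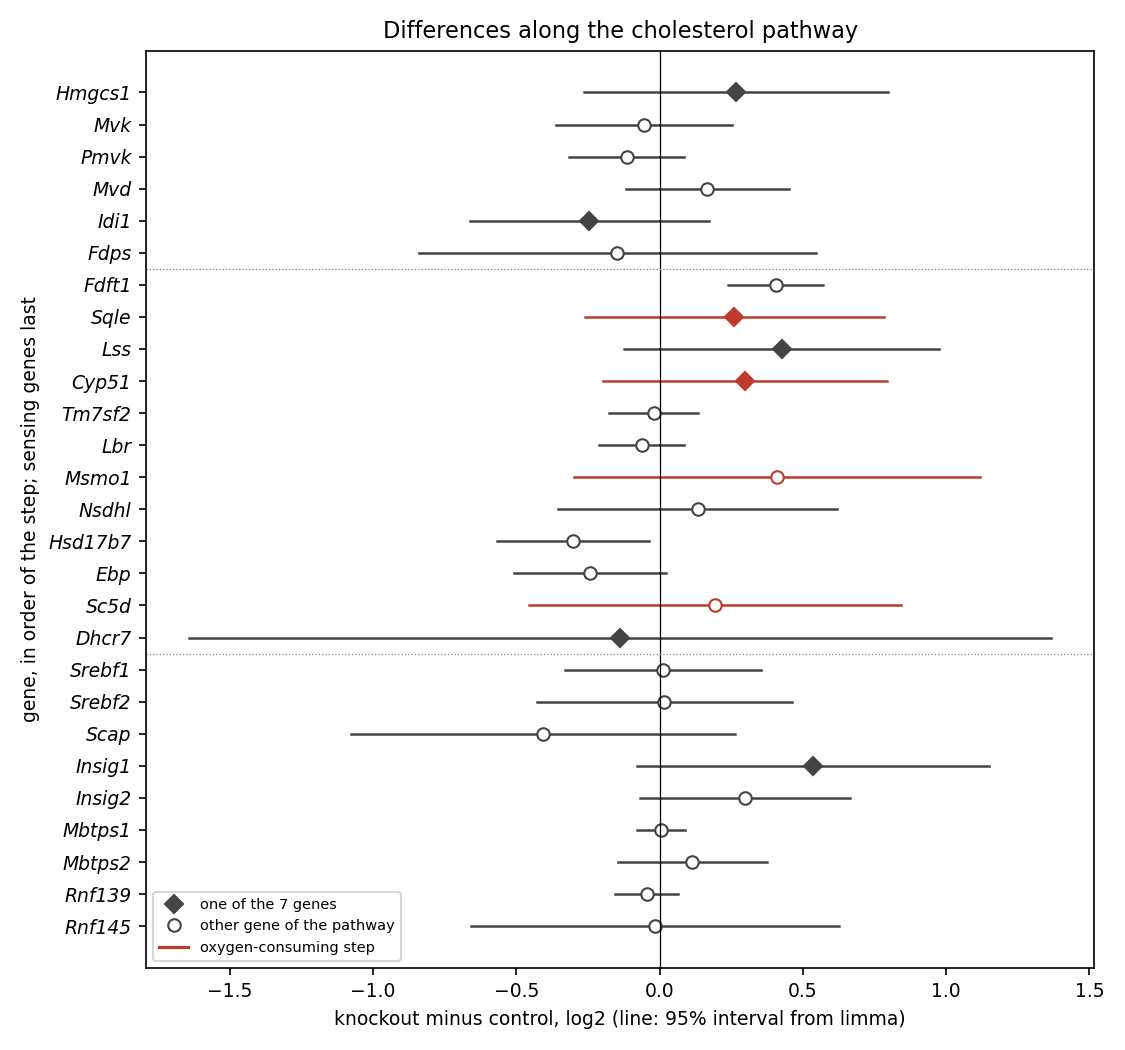
Knockout minus control difference on the log2 scale (horizontal axis) with its 95% interval from limma, for the genes of cholesterol synthesis in order of their step and then the sensing genes. Filled diamonds are the 7 genes and red marks the oxygen-consuming steps; the interval of every one of the 7 genes includes 0, while those of Fdft1 (0.24 to 0.57) and Hsd17b7 (-0.57 to -0.04) do not.

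Along the whole synthesis pathway the estimates pointed both ways. Of 21 enzyme genes listed for both arms, 18 were tested and the others were not analysed here. Of the 18, 9 were higher and 9 lower (44.8% and 55.2% of all genes tested), and their median difference was 0.06. In the first arm, to farnesyl pyrophosphate, 2 of 6 were higher (median -0.08), and in the sterol arm 7 of 12 (median 0.16). The sterol arm median was 0.03 without control replicate 3, -0.02 without knockout replicate 2 and 0.36 without knockout replicate 1, and the first arm's was 0.05 without knockout replicate 1. The unadjusted p was under 0.05 for 2 genes, or 11.1%, against 8.78% of all genes. Fdft1, squalene synthase, which opens the sterol arm, was at 8.70, 8.58 and 8.60 in the controls and at 8.98 and 9.08 in the knockout arrays. Both knockout arrays lay clearly above the controls. The difference was 0.40 ± 0.06 (SE), with an unadjusted p of 0.00245 and an adjusted p of 0.355 in limma. Hsd17b7, a ketoreductase of the later steps, was at 7.53, 7.41 and 7.25 in the controls and at 7.08 and 7.11 in the knockout arrays, all below the controls. The difference was -0.30 ± 0.10 (SE; adjusted p of 0.526 in limma). Higher means were therefore not a feature of every step.

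The regulators that act on SREBP showed no common direction. Of 11 listed sensing genes, 9 were tested, of which 6 were higher, where 44.8% of all genes tested were. The median of the 9 was 0.01, and 0 reached an unadjusted p under 0.05 (8.78% of all genes did). Without knockout replicate 2, 3 were higher. Scap, the escort of SREBP, was at 7.62, 7.78 and 7.62 in the controls and at 6.90 and 7.63 in the knockout arrays. It was low in knockout replicate 1 only, and differed by -0.41 ± 0.24 (SE). The gene for SREBP2, Srebf2, differed by 0.02 ± 0.16 (SE), with 8.14 and 8.58 in the knockout arrays on either side of the controls, and was named after its values were seen. Mbtps2, a protease that releases SREBP, differed by 0.11 ± 0.09 (SE).

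Among genes that move cholesterol, the uptake receptor Vldlr had the largest difference. It binds triglyceride-rich lipoproteins, and its level was 6.94, 6.65 and 6.51 in the controls and 9.40 and 8.29 in the knockout arrays. No control came near either knockout array. The difference was 2.15 ± 0.38 (SE), or 4.43-fold, at an adjusted p of 0.355 in limma. Of 7 tested genes of uptake and transport 6 were higher, where 44.8% of all genes tested were. The median of the 7 was 0.11 (0.04 without control replicate 3 or without knockout replicate 2). An unadjusted p under 0.05 was found for 2 higher genes, Vldlr and the sterol carrier Stard4 (0.34 ± 0.11, SE), and 1 lower, Mylip (-0.23 ± 0.08, SE), whose product marks lipoprotein receptors for breakdown. Over all genes tested, 3.29% were higher and 5.49% lower at that level. The lysosomal cholesterol exporter Npc1 differed by 0.07 ± 0.06 (SE).

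Of the genes of efflux and storage all 5 tested were higher, where 44.8% of all genes tested were. The median of the 5 was 0.63, but this came from different arrays. The median was 0.12 without knockout replicate 1 and 0.14 without knockout replicate 2. Apoe, which carries cholesterol out of cells, was higher on both knockout arrays, at 9.57 and 9.79 against 8.75 to 8.82 in the controls, a difference of 0.89 ± 0.08 (SE; adjusted p of 0.333 in limma). The exporter Abca1 was high only in knockout replicate 2, at 6.01 against 4.74 to 4.77 elsewhere. Endoderm and liver markers were also high on that array, with a median level of 8.55 against 4.33 to 4.36 elsewhere. Their part in the Abca1 value was not tested. The enzyme Ch25h, which hydroxylates cholesterol, was high only in knockout replicate 1, at 6.28 against 4.78 to 4.87 elsewhere. On that array 5 of the 10 measured myeloid markers had their highest value. Among them were Fcgr3, at 5.59 against 4.59 to 4.98, and Ptprc, at 4.25 against 3.11 to 3.16. Ptprc did not pass the filter on dim genes. The other markers did not peak there: 3 (C1qa, C1qb and Cd68) were highest in control replicate 3 and 1 (Mrc1) in knockout replicate 2. C1qa had its lowest value in knockout replicate 1, and Adgre1 had 4.15 on every array. The part of myeloid cells in the Ch25h value was not tested. Abcg1 differed by 0.05 ± 0.04 (SE).

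Fatty acid genes that SREBP factors also drive were lower for 7 of 10, where 55.2% of all genes tested were. Both this count and the median of the 10, -0.09, rest on knockout replicate 1. Without that array 4 were lower (median 0.20), and without knockout replicate 2 the number was 8 (median -0.21). Malic enzyme, Me1, which supplies NADPH, differed by -0.44 ± 0.10 (SE) and was the only 1 of the 10 at an unadjusted p under 0.05 in limma, a level that 8.78% of all genes reached. The desaturases Scd1 and Scd2, which also use oxygen, differed by 1.02 ± 0.80 and 0.45 ± 0.28 (SE). Scd1 was at 7.68 in knockout replicate 2 and at 4.98 to 5.98 on the other arrays. The part of endoderm or liver cells in that value was not tested. The carboxylase Acaca differed by -0.16 ± 0.14 (SE).

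**Figure D3:**
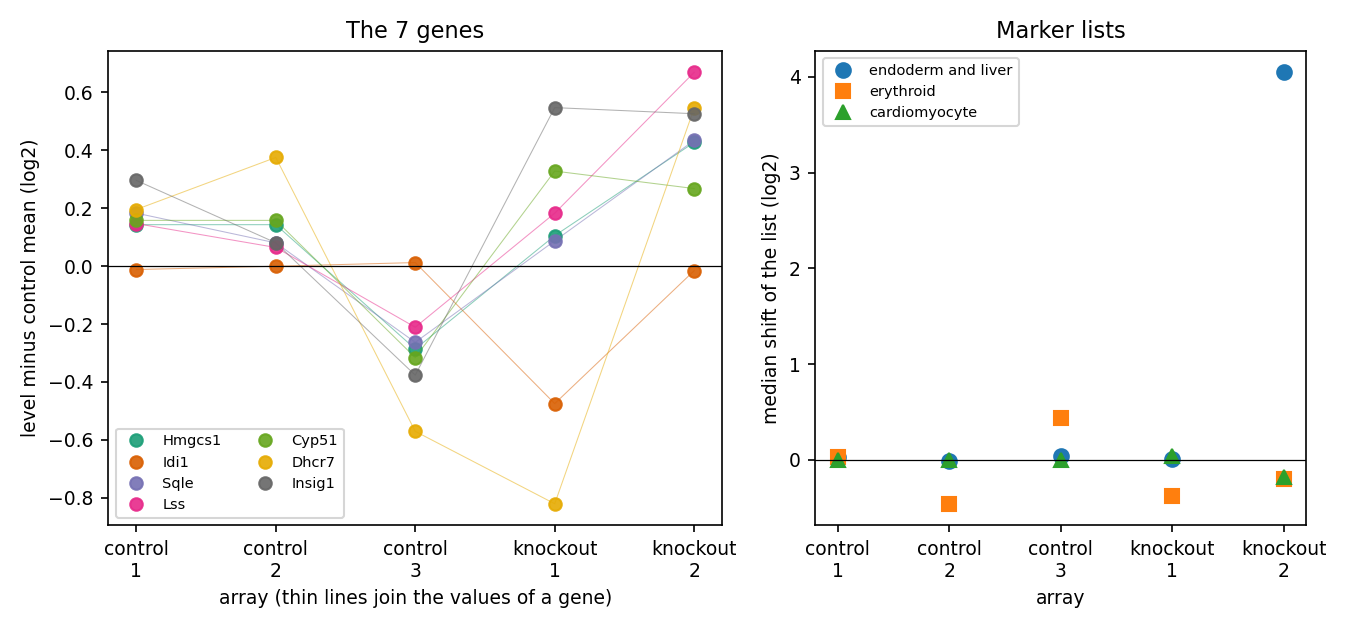
Left, level minus the control mean (log2) of the 7 genes on each array; right, the median shift of 3 lists of cell type markers on the same arrays. Of the 7 genes, 6, 6 and 1 are over the control mean in control replicates 1, 2 and 3. In knockout replicates 1 and 2 the counts are 5 and 6. The endoderm and liver markers are shifted by 4.05 in knockout replicate 2.

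The 7 genes also differed between arrays of the same group. The median shift from the control mean was 0.16, 0.08 and -0.29 in control replicates 1, 2 and 3, and 0.11 and 0.43 in knockout replicates 1 and 2. By this median control replicate 3 was the low array and knockout replicate 2 the high one. The genes went both ways in knockout replicate 1, where 5 lay over the control mean and 2 under it. Without control replicate 3 the median difference was 0.13, without knockout replicate 2 it was 0.11, and without knockout replicate 1 it was 0.43. Among the 18 synthesis enzymes, 17 were higher in knockout replicate 2 than in knockout replicate 1, all but Cyp51, where 44% of all genes tested were.

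Both of these arrays also differed in cell type markers. In knockout replicate 2 the 14 endoderm and liver markers had a median level of 8.55, against 4.33 to 4.36 on the other arrays, with Afp at 11.42 against 3.86 to 4.07 and Alb at 7.07 against 3.03 to 3.24. In knockout replicate 1, where these markers were at the control level, Insig1 lay 0.55 and Cyp51 0.33 over the control mean, above every control, while Sqle lay 0.09, Hmgcs1 0.11 and Lss 0.18 over it. On the same array Dhcr7 had a shift of -0.82 and Idi1 of -0.47, both below every control. In control replicate 3 the 7 measured erythroid markers had a median level of 9.34, against 6.55 to 7.83 on the other arrays, Slc4a1 being at 9.34 there against 6.12 to 7.83. The part of endoderm or red cells in the differences of the synthesis genes was not tested. Fewer cells of a type and less RNA per cell cannot be told apart in these samples. All 10 cardiomyocyte markers were well above the dim level of 4.44 on every array, with medians of 11.48 to 11.76; myeloid medians were 4.68 to 5.06 and neural medians 3.92 to 4.40.

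The genes outside the lists whose levels ran closest to the median profile of the 7 over the 5 arrays were Nfatc4, Ccn1, Fras1, Rbms3 and Ube2e2. Likeness was the root mean square distance between levels centred on the control mean, which was 0.04 for Nfatc4 and 0.05 for Ube2e2. Nfatc4, a calcium-regulated transcription factor, was at 5.74, 5.69 and 5.23 in the controls and at 5.69 and 5.97 in the knockout arrays. It was lowest in control replicate 3 and highest in knockout replicate 2, which follows from its choice by closeness to that profile. Of the 7 genes themselves, Sqle (0.02) and Hmgcs1 (0.03) were closest to that profile, which they help to define, and Idi1 (0.36) and Dhcr7 (0.46) were farthest from it.

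Across the series, array medians lay between 5.07 and 5.11 and correlations between arrays over all probe sets were 0.986 to 0.996, the lowest being between the knockout arrays. Lrrfip2 was at 7.33, 8.07 and 8.08 in the controls and at 6.36 and 6.22 in the knockout arrays, so its groups did not overlap, in the direction of the labels. Equal values occur between arrays, as for Hmgcs1 and Cyp51 in control replicates 1 and 2.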

How the data were processed

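Total RNA from 5 hearts or heart pools (3 control and 2 knockout samples, 20 ng each) was amplified and labelled for Affymetrix arrays, per the labels' protocols. The deposited log2 values were made by the authors with Affymetrix Expression Console and RMA, per the submitters' processing notes, with versions, settings and build not given in the sources used here. RMA gives the probe intensities of every array the same distribution before summarizing them. A shift of the whole transcriptome would therefore not be seen, and no scanner values were used. Of 24479 probe sets, 23281 had 1 symbol in the platform annotation, 0 several and 1198 none; current symbols came from RefSeq (GRCm38.p6) for 23156. The brightest probe set stood for a gene, and genes with a mean under the 40th percentile (4.44) were left out. Knockout was compared with control by two-sided moderated tests (lmFit, then eBayes) of limma 3.58.1 under R 4.3.3 with no covariate, and with Benjamini-Hochberg adjustment over all 13967 genes tested and a threshold of 0.05. With 10 splits of 2 against 3, no permutation p could fall below 0.1. Precision is limited by the number of arrays. The steps were tested on simulated data, with independent noise of the size of the control spread on every array. That setting holds no array with a shared shift of cell type markers, as seen here.

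The genes and lists were chosen with earlier results of these data known, and are described by counts and medians without a set test. Named were the 7 genes, the oxygen-consuming enzymes, other synthesis enzymes at an unadjusted p under 0.05, up to 4 genes of each other list with the smallest p, the 5 genes closest in profile, and Lrrfip2. Alternatives concerned the filter, the variance prior, array weights, normalization, centring, averaging of probe sets and leaving out each array. Promoters were searched on both strands with Python 3.11.15.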

Additional observations from a re-analysis of the deposited data

How the results depend on the processing

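No paired analysis was possible because the sample numbers in the labels are not shared between the groups. The count of genes passing the adjusted threshold, 0 with all arrays, was 0 to 1011 when an array was left out: 1011 without knockout replicate 2, 9 without knockout replicate 1 and 0 without each control. Of the 7 genes, 5 were higher with all arrays, and 5 to 6 when an array was left out. The number at an unadjusted p under 0.05 was 0 to 2 when an array was left out, and 1 after quantile normalization again; the cause was not tested. The number with all knockout arrays above the controls was 3 with all arrays and 3 to 6 when an array was left out. The highest count was without knockout replicate 1, where only 1 knockout array has to lie above. The share of all genes that met either criterion was not counted in these fits, so these numbers have no background beside them. In the sensing list, 6 were higher, and 3 to 7 when an array was left out. The count was also 5 with array weights and 5 with arrays centred on their median. Dhcr7, at -0.14 with all arrays, ranged from -0.82 without knockout replicate 2 to 0.55 without knockout replicate 1, and was 0.05 without control replicate 2. Of 245 values for 19 single genes under 13 alternatives, 240 kept their direction and their side of the adjusted threshold. The other changes were calls gained without knockout replicate 2, for Idi1 (-0.47), Vldlr (2.70) and Apoe (0.78). Other filters, priors, weights, centring and averaging changed no direction or call among these 19 genes. A filter or prior leaves each difference as it is, and so does averaging for a gene with 1 probe set, as here. These settings could therefore not have changed a direction. Array weights brought Hmgcs1 to 0.17, Sqle to 0.17, Cyp51 to 0.19, Msmo1 to 0.27, Sc5d to 0.07 and Dhcr7 to -0.32. The narrowest interval among the 7 genes, that of Idi1, ran from -0.66 to 0.17.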
